A study of Mus musculus with 6 samples.

Results

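The genes described here are those of the nuclear pore complex, of the nuclear lamina and inner nuclear membrane, the LINC complex that links nucleus and cytoskeleton, and the soluble nuclear transport machinery, in CD133-positive and CD133-negative cells of a mouse pancreatic cancer line. Members were taken by gene symbol: those starting with Nup, Kpna, Kpnb, Xpo or Ipo followed by a digit, and 17 further symbols, from Lmna and Emd to Ran and Tpr. On the array's gene annotation 54 of 19057 named genes met this rule, with 119 of 45281 probes, and of the 17 further symbols Tpr was the 1 with no probe here. A probe entered the test if 3 or more of the 6 arrays detected it above background, at a detection p under 0.05, which left 76 probes of 46 member genes and left out 43 probes. The rule reads symbols and uses no measured value.

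The cells were KPC001, which the labels give as a mouse pancreatic cancer cell line without stating its genotype. One group was the CD133-positive population and the other the CD133-negative population, with 3 arrays each. Both came from this 1 line, were grown in high-glucose DMEM with 10% serum and received no treatment. The labels do not say how the populations were separated, or whether the 3 samples of a group were separate cultures, and the p-values therefore describe the spread among these samples, some or all of which may be technical.

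As background, nuclear pore complexes are large channels in the nuclear envelope, built from nucleoporins arranged in rings, a central channel of phenylalanine-glycine repeats, filaments on the cytoplasmic face and a basket on the nuclear face. Importins and exportins carry cargo through the channel, and the small GTPase Ran, which is GTP-bound in the nucleus and GDP-bound in the cytoplasm, sets the direction of transport. The lamins form a meshwork under the inner nuclear membrane, where proteins such as emerin, the lamin B receptor and the products of Tmpo connect lamins and chromatin to the membrane.

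Between 37.8% and 39.9% of all probes were detected on an array, and between 72 and 78 of the 119 member probes were. A median of 37 to 40 beads stood behind a member probe, and the smallest number was 13. Prom1, which encodes CD133, had 3 probes and was not above background on any array, so it does not check the labels. Epithelial and ductal markers were detected for 7 of 8 genes, Epcam being the exception, and their summed normalized intensity was 24590 to 25450 on CD133-positive arrays and 26620 to 27300 on CD133-negative arrays, without overlap. By limma's test 0 of their 12 probes passed, with 2 higher and 1 lower at an unadjusted p under 0.05, and the smallest p values were those of Cdh1 and Muc1, whose probes differed. By group means Cdh1 was at least 1.215-fold higher on the dim probe ILMN_1227162 (not above background on CD133-negative arrays, limma's adjusted p = 0.17). On ILMN_2628629, which every array detected, Cdh1 had -0.12 ± 0.13. Muc1 had 0.31 ± 0.11 on ILMN_1250138 (adjusted p = 0.21) and 0.26 ± 0.13, -0.17 ± 0.12 and 0.12 ± 0.22 on its other probes. By sign, 4 of the tested epithelial and ductal probes were higher and 8 lower. The 1 lower at an unadjusted p under 0.05 was that of Krt18, at -0.21 ± 0.083 without overlap of the groups (adjusted p = 0.259). Krt7 had -0.165 ± 0.088, Krt19 -0.16 ± 0.11, Krt8 -0.056 ± 0.082 and Sox9 -0.22 ± 0.11 and -0.042 ± 0.082. Leukocyte markers summed to 1365 to 1537 on CD133-positive arrays and 1315 to 1375 on CD133-negative arrays, with Cd3e below background. Most of that sum came from Cd14, with mean log2 intensities of 10.17 in CD133-positive and 10.05 in CD133-negative cells. Its probe, the 1 of this list that every array detected, had 0.12 ± 0.092 without overlap of the groups. The smallest p values were those of dim probes of Fcer1g (by group means at least 1.077-fold lower, not above background on CD133-positive arrays) and Csf1r (-0.25 ± 0.11). Endothelial markers summed to 426.4 to 451.1 on CD133-positive arrays and 430 to 433.4 on CD133-negative arrays, with Cdh5 and Tek below background. By group means Eng was at least 1.165-fold lower (not above background on CD133-positive arrays). Egfl7 had 0.094 ± 0.10 and -0.032 ± 0.18 on its tested probes. Fibroblast and stellate markers summed to 542.7 to 590.4 on CD133-positive arrays and 574.3 to 616.4 on CD133-negative arrays, with Lum below background, Col1a1 at -0.27 ± 0.13 and Acta2 at 0.29 ± 0.14, 0.22 ± 0.15, -0.025 ± 0.082 and 0.019 ± 0.16 on its tested probes. Of the acinar and endocrine markers Cpa1, Gcg and Ins2 were below background and Cela1 had -0.095 ± 0.14. None of the probes in these lists passed in limma, with 1 leukocyte and 1 endothelial probe lower and 0 of either list higher at an unadjusted p under 0.05, and the part of these lists in the results below was not tested.

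Of the member genes, 4 had 1 probe each that passed as higher in CD133-positive cells, and none had a lower one. They were Emd, Lbr and Tmpo, which encode proteins of the inner nuclear membrane and lamina, and Nup88, a nucleoporin of the cytoplasmic face of the pore. In Lbr, Tmpo and Nup88 a much brighter probe of the same gene did not pass. In limma's moderated test with Benjamini-Hochberg adjustment over all 17219 tested probes of the array, 4 of 76 member probes passed at an adjusted p under 0.05 (5.26%), all of them higher, beside 1.53% of all tested probes in either direction, 1.25% higher and 0.279% lower. Counted by gene, 4 of 46 member genes had a probe that passed, where 2.09% of all tested genes had one in either direction and 1.64% had a higher one. At an unadjusted p under 0.05, 9 member probes of 8 genes were higher (11.8%) and 0 lower, and the shares over the whole array were 9.08% higher and 7.53% lower. That 0 depended on the processing: 7 member probes were lower at this level without background correction and 11 with a median shift, a scaling under which the median of all tested probes was -0.13. The groups did not overlap on 20 tested member probes (26.3%), 12 higher and 8 lower, beside 23.1% over the array. The median log2 difference of the tested member probes, CD133-positive minus CD133-negative, was -0.0053, and that of all tested probes was -0.016.

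**Figure D1:**
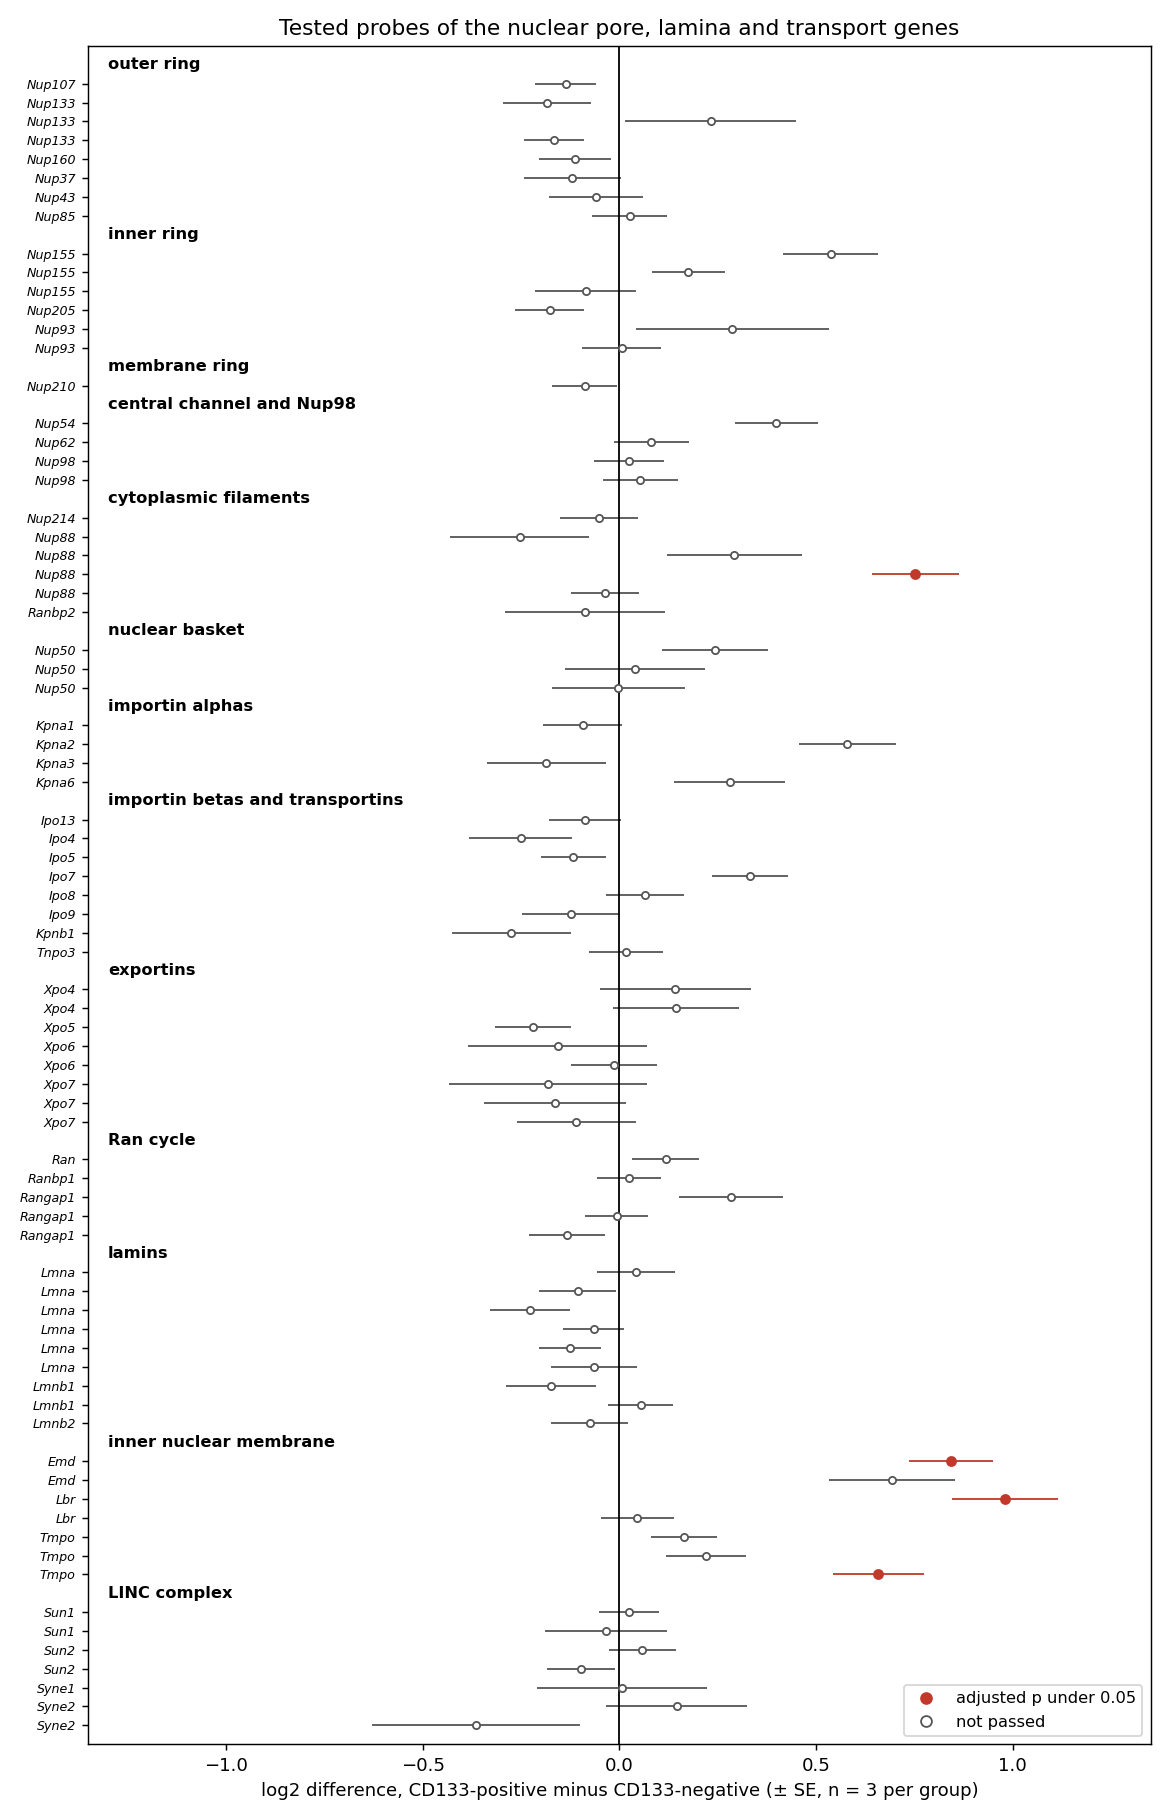
Log2 difference between CD133-positive and CD133-negative cells (horizontal axis, ± SE of the fit, n = 3 per group) for each of the 76 tested member probes, grouped by role from top to bottom. The 4 filled points, Nup88 at 0.75, Emd at 0.84, Lbr at 0.98 and Tmpo at 0.66, passed the threshold, and the 7 probes of Emd, Lbr and Tmpo, labelled inner nuclear membrane, lie right of 0, where a median shift puts 1 Lbr probe at -0.12. Sun1 and Sun2, under the LINC complex, have points on both sides of 0.

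Emd encodes emerin, a LEM-domain protein that is anchored in the inner nuclear membrane and binds lamins and the chromatin protein BAF. Its log2 normalized intensity on ILMN_2630593 was 9.06, 8.93 and 8.72 in CD133-positive cells, against 8.00, 8.11 and 8.07 in CD133-negative cells. The difference was 0.84 ± 0.11 (SE, n = 3 per group), a 1.79-fold rise, with limma's adjusted p = 0.0213. Every CD133-positive array lay above every CD133-negative array, with a gap wider than the range within either group. The second probe, ILMN_2745259, read 8.29, 7.99 and 7.79 in CD133-positive cells, against 7.37, 7.10 and 7.53 in CD133-negative cells. These groups did not overlap either, and the difference of 0.69 ± 0.16 missed the threshold (adjusted p = 0.087). Both probes of Emd on the array therefore separated the groups in the same direction. Before background correction and normalization, the deposited intensity on ILMN_2630593 was 630, 544 and 474 in CD133-positive cells, against 390, 386 and 362 in CD133-negative cells. With the tested probes of each gene averaged, Emd was the 1 member gene that passed, with 0.77 ± 0.12 (adjusted p = 0.0393). Averaged in this way, Lbr had 0.51 ± 0.10 (limma's adjusted p = 0.0754), Tmpo 0.35 ± 0.071 (0.0848) and Nup88 0.19 ± 0.075 (0.279).

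Lbr encodes the lamin B receptor, an inner nuclear membrane protein that tethers heterochromatin to the envelope and also has sterol reductase activity. Probe ILMN_2509988 had log2 intensities of 7.35, 7.16 and 7.11 in CD133-positive cells, against 6.24, 6.46 and 5.99 in CD133-negative cells. The groups were well apart, and the difference of 0.98 ± 0.14 (1.97-fold, adjusted p = 0.0258 in limma) was the largest of any tested member probe. On the other probe, ILMN_2733120, the values were 11.27, 11.25 and 11.21 in CD133-positive cells, against 11.32, 11.22 and 11.06 in CD133-negative cells. These overlapped, with a difference of 0.045 ± 0.093 and a 95% interval of -0.17 to 0.26, so a rise of the size seen on the first probe lies outside the interval of the second. The platform annotation gave both probes the symbol Lbr. Probe sequences were not used here, so the probes were not placed on transcripts. The deposited intensity on ILMN_2509988 was 264, 233 and 221 in CD133-positive cells, against 183, 188 and 162 in CD133-negative cells.

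Tmpo encodes thymopoietin, the family of lamina-associated polypeptide 2 proteins, which share a LEM domain and bind lamins and chromatin. Probe ILMN_3094743 read 6.84, 7.10 and 6.70 in CD133-positive cells, against 6.24, 6.26 and 6.17 in CD133-negative cells. The difference was 0.66 ± 0.12 (1.58-fold, adjusted p = 0.0443), and the lowest CD133-positive array exceeded the highest CD133-negative one. On ILMN_3022428 the intensities were 8.41, 8.43 and 8.53 in CD133-positive cells, against 8.37, 8.07 and 8.26 in CD133-negative cells, and on ILMN_1220051 they were 8.48, 8.48 and 8.62 in CD133-positive cells, against 8.39, 8.32 and 8.38 in CD133-negative cells. The groups did not overlap on these probes either, but the differences of 0.22 ± 0.10 and 0.16 ± 0.085 were smaller and missed the threshold (adjusted p = 0.335 and 0.387). A further Tmpo probe was detected on 2 of 6 arrays and not tested. The deposited intensity on ILMN_3094743 was 214, 227 and 191 in CD133-positive cells, against 183, 177 and 170 in CD133-negative cells. Over Emd, Lbr and Tmpo together, 7 of 7 tested probes had a difference above 0, a direction that flips for Lbr ILMN_2733120 to -0.12 with a median shift and to -0.023 without CD133-negative replicate 3. Of these, 3 passed and 6 were higher without overlap of the groups, as were 11.5% of all tested probes. The median difference was 0.66, which is the value of the passing Tmpo probe, against -0.016 over all tested probes. Each of these 3 genes has a probe that passed, and probes of 1 gene are not independent. These counts therefore add no support to the calls. The tested probes of Sun1 and Sun2, which also encode inner nuclear membrane proteins, lay between -0.10 and 0.058, and 0 passed. Of nuclear envelope genes outside the rule, picked out after their values were seen, Lemd2 had -0.12 ± 0.08, Tmem43 -0.0032 ± 0.088 and -0.028 ± 0.079, Ankle2 -0.16 ± 0.089 and -0.029 ± 0.081, Nrm 0.044 ± 0.086 and Tor1aip1 0.21 ± 0.15 and 0.049 ± 0.082. Related genes outside the rule differed more. Tor1aip2 had 0.45 ± 0.19, -0.34 ± 0.14 and -0.23 ± 0.15, and Tor1a had 0.44 ± 0.18, 0.16 ± 0.11 and 0.11 ± 0.14. Zmpste24 had 0.45 ± 0.085 without overlap of the groups (limma's adjusted p = 0.0543), 0.28 ± 0.13 and -0.13 ± 0.084. Banf1, which encodes BAF, had -0.22 ± 0.10, 0.15 ± 0.10, 0.073 ± 0.11 and -0.045 ± 0.085. None of the probes of these genes passed.

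**Figure D2:**
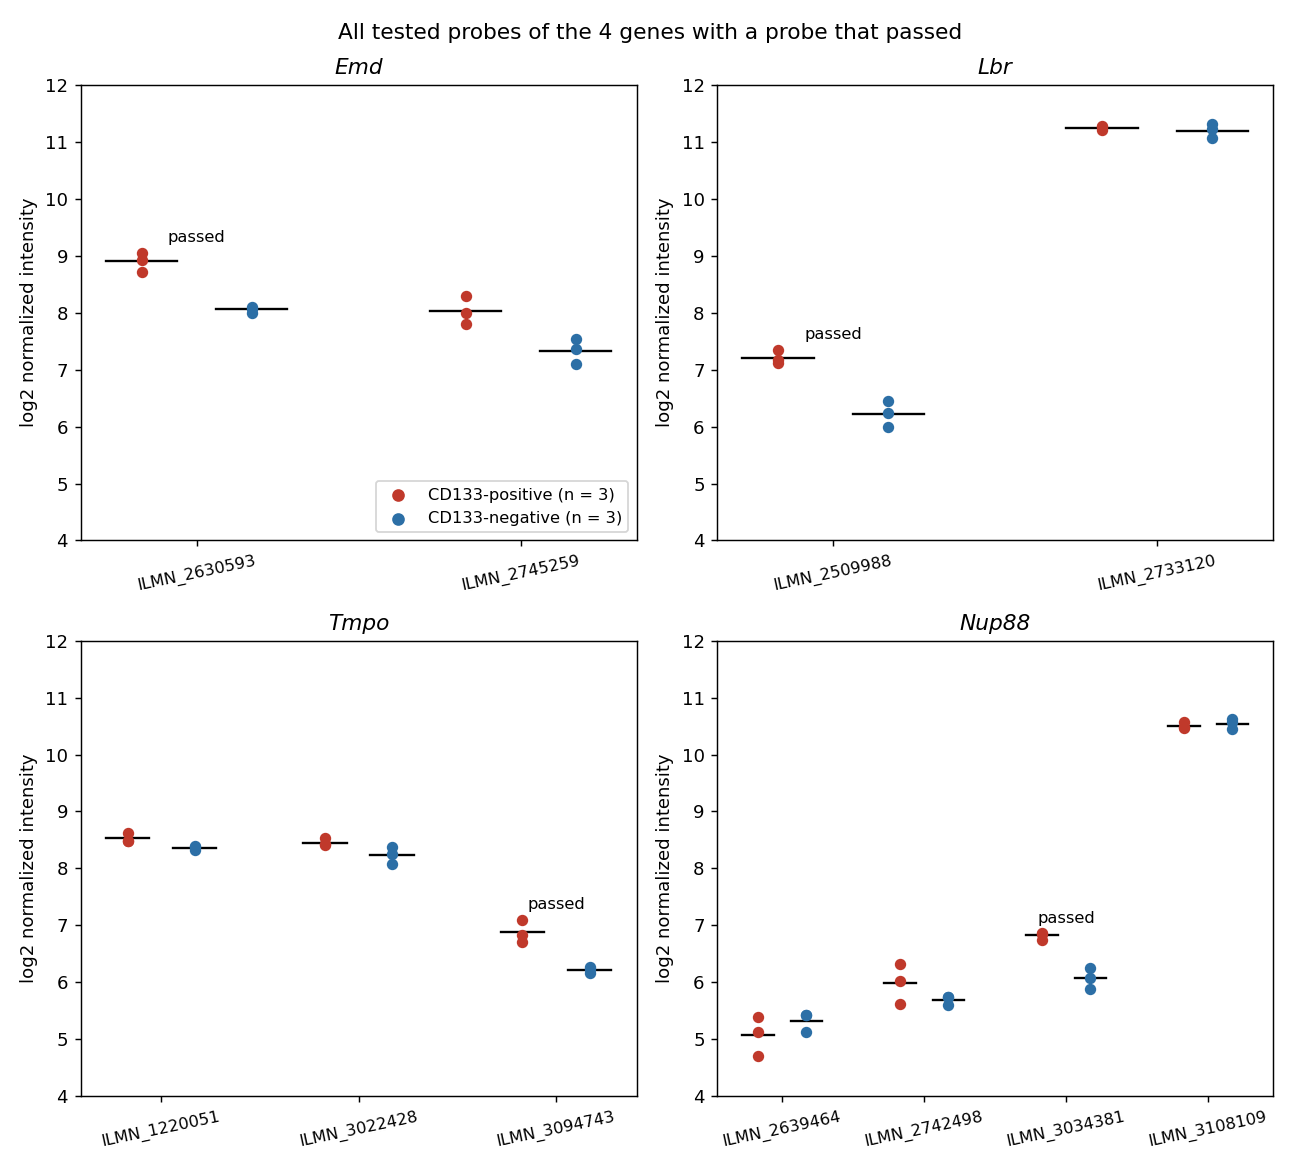
Log2 normalized intensity (vertical axis) of every tested probe of Emd, Lbr, Tmpo and Nup88, with CD133-positive arrays (red) left of CD133-negative arrays (blue), 3 points each and a bar at the mean. The probes that passed are marked. The second probe of Emd and the further probes of Tmpo also separate the groups, while the other probe of Lbr and the other probes of Nup88 overlap.

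Nup88 encodes a nucleoporin that sits with Nup214 on the cytoplasmic side of the pore and takes part in exportin-dependent transport. Probe ILMN_3034381 had log2 intensities of 6.75, 6.86 and 6.86 in CD133-positive cells, against 5.89, 6.07 and 6.26 in CD133-negative cells. The difference was 0.75 ± 0.11 (1.68-fold, adjusted p = 0.0296), and the groups did not overlap. The 3 other tested probes of Nup88 did not pass and had overlapping groups, with -0.036 ± 0.086 on ILMN_3108109, 0.29 ± 0.17 on ILMN_2742498 and -0.25 ± 0.18 on ILMN_2639464. The 95% interval on ILMN_3108109, detected on all arrays, was -0.24 to 0.17. A further probe of Nup88 was not detected on any array. On ILMN_3034381 the deposited intensity was 208, 207 and 202 in CD133-positive cells, against 164, 167 and 174 in CD133-negative cells.

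**Figure D3:**
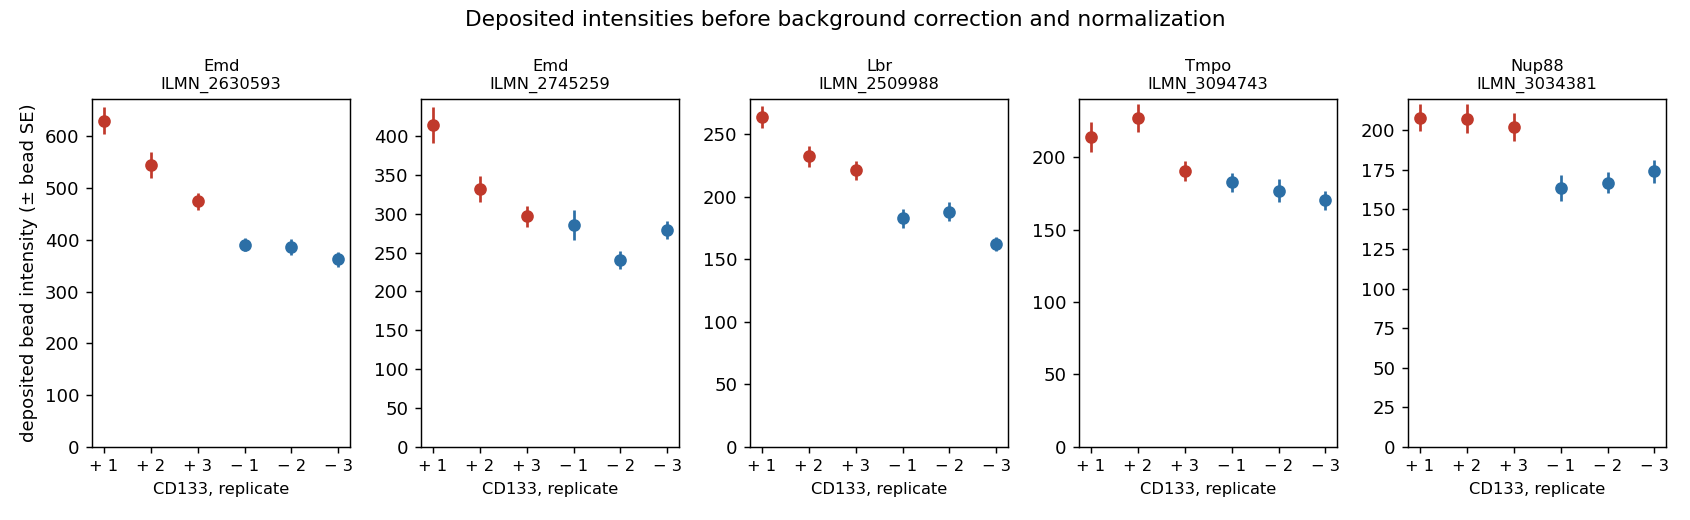
Deposited mean bead intensity on a linear scale (vertical axis, ± the deposited standard error of the beads) on each array, for both Emd probes and the passing probes of Lbr, Tmpo and Nup88, CD133-positive arrays left (red) and CD133-negative arrays right (blue). The CD133-positive arrays sit above the CD133-negative ones on each of these probes, by the least for Tmpo, at 191 against 183 for the nearest arrays, and for the second Emd probe, at 297 against 286.

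The 4 calls needed the full set of arrays. Each of them lost its call when any 1 of the 6 arrays was left out, with adjusted p between 0.0585 and 0.139 and log2 differences of 0.77 to 0.94 for Emd, 0.86 to 1.09 for Lbr, 0.55 to 0.75 for Tmpo and 0.65 to 0.85 for Nup88. With a median shift in place of quantile normalization none of the 4 passed (adjusted p 0.0505 to 0.101), and without background correction all 4 passed with differences of 0.66, 0.50, 0.32 and 0.35 for Emd, Lbr, Tmpo and Nup88. Tmpo also lost its call when dim probes were not filtered out.

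**Figure D4:**
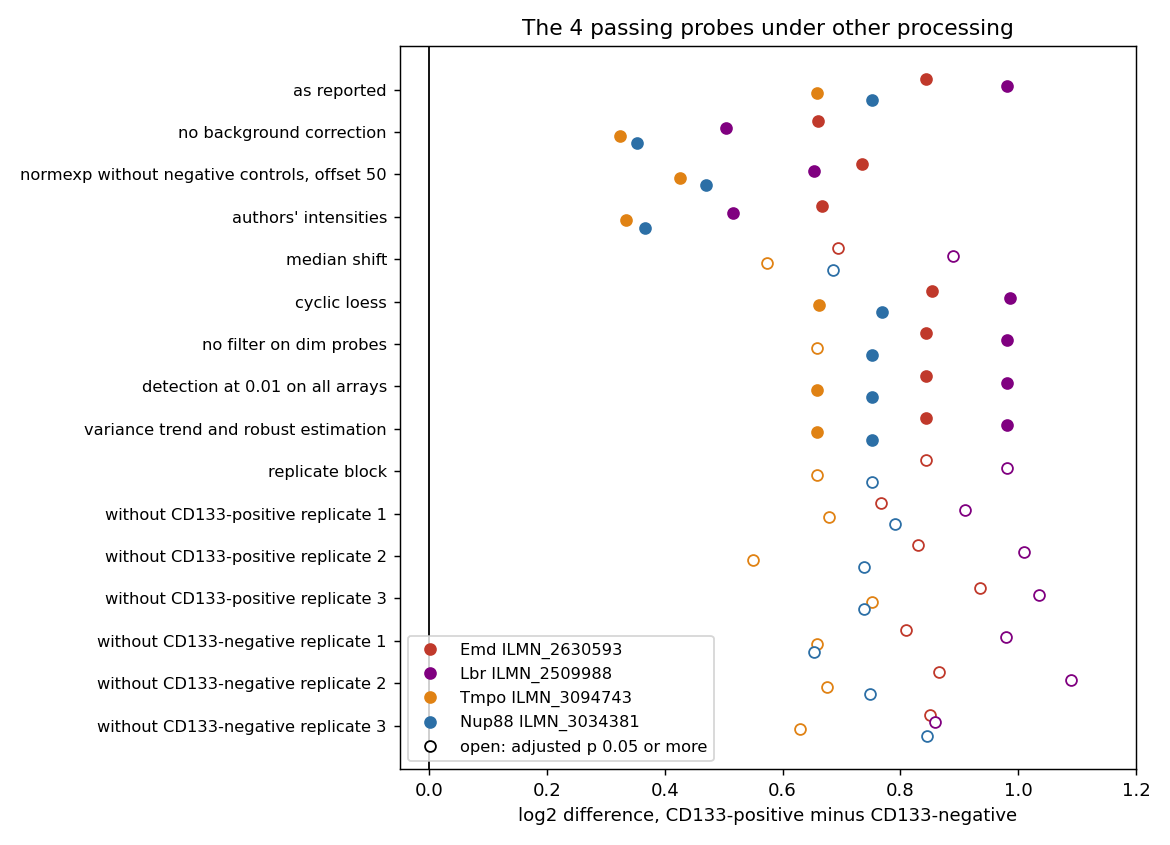
Log2 difference, CD133-positive minus CD133-negative (horizontal axis), of the 4 passing probes as reported and under 15 other ways of processing (vertical axis). Filled points passed at an adjusted p under 0.05 and open points did not. Every point lies above 0, from 0.32 for Tmpo to 1.09 for Lbr, and all points with an array left out are open. Points for the filters, the variance trend and the replicate block repeat the reported difference by design.

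The promoters of these 4 genes are shown because these are the members with a probe that passed. The arrays measured no promoter activity. The sequences are from RefSeq on GRCm38.p6, run from 250 bases before to 50 bases after an annotated start, and read 5′ to 3′ on the gene's strand. They lie at chrX:74254437-74254736 (plus strand) for Emd, chr1:181842352-181842651 (minus strand) for Lbr, chr10:91171570-91171869 (minus strand) for Tmpo (1 of 2 windows listed) and chr11:70969924-70970223 (minus strand) for Nup88. The Tmpo window lies inside the gene, whose annotated 5′ end is at chr10:91181752, so its start is an internal one. Capitals mark CCAAT (the CCAAT box) and GGGCGG (the GC box) on either strand.
Emd: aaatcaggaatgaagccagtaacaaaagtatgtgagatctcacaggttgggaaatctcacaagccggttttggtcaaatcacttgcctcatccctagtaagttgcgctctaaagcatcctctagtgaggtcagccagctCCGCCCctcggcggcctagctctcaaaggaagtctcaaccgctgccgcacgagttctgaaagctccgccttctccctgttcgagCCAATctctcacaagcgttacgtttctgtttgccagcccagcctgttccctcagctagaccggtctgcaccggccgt
Lbr: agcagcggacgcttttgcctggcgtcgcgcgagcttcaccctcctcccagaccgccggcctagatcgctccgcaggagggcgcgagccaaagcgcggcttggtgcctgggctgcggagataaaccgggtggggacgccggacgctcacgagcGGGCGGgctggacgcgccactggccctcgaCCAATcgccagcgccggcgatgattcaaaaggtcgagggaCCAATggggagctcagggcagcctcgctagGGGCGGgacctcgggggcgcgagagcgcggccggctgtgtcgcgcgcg
Tmpo: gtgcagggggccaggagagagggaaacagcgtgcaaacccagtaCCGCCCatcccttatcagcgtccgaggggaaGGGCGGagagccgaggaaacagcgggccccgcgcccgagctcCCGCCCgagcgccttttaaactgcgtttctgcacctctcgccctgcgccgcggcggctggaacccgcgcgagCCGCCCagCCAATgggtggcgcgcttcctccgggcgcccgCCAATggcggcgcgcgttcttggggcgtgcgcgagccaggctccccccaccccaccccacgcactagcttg
Nup88: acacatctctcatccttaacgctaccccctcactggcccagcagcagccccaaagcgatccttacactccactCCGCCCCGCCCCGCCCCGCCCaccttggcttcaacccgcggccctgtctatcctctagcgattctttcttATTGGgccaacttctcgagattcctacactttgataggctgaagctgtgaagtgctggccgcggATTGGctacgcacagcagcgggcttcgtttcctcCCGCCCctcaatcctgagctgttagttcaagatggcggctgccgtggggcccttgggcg
Emd held 1 CCAAT and 1 GGGCGG, Lbr 2 and 2, Tmpo 2 and 4, and Nup88 2 and 5, with no overlap between a CCAAT and a GGGCGG match, while GGGCGG matches of Nup88 overlap each other. The other Tmpo window, not printed, held neither motif, so 4 of the 5 windows of these genes held each. Both motifs are common in promoters. CCAAT was found in 37.4% of all 32851 windows of this length and in 50.9% of the 57 windows of the 45 member genes that have one, and GGGCGG in 35.7% and 64.9%. CACGTG (the E-box), TGACGTCA (the cAMP response element) and the NRF1 motif were searched on both strands too and had no match in the windows of these 4 genes, and 7.15%, 1.79% and 4.6% of all windows held them.

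The lamins themselves gave no call. Lmna encodes lamins A and C, and Lmnb1 and Lmnb2 encode the B-type lamins. Of 9 tested lamin probes 0 passed in limma's test, 0 at an unadjusted p under 0.05. On Lmna probe ILMN_1255510, the one with the smallest p, the log2 intensity was 12.22, 12.26 and 12.19 in CD133-positive cells, against 12.31, 12.62 and 12.42 in CD133-negative cells. These groups did not overlap, with a difference of -0.23 ± 0.10 (adjusted p = 0.318), and this probe passed as lower with a variance trend and robust estimation (adjusted p = 0.0331). The other Lmna probes had -0.13 ± 0.079, -0.11 ± 0.10, -0.065 ± 0.078, -0.064 ± 0.11 and 0.042 ± 0.10, and all 6 were detected on every array. The groups of ILMN_2662387 and ILMN_2597710 did not overlap either, both lower. The 95% intervals of the 6 probes together ran from -0.46 to 0.27, so a change of the size called for Emd lies outside each of them. Lmnb1 had 5.47, 5.63 and 5.39 in CD133-positive cells, against 5.85, 5.53 and 5.63 in CD133-negative cells on ILMN_2720229, a difference of -0.17 ± 0.11, and 0.055 ± 0.083 on ILMN_2916035. Lmnb2 had 8.36, 8.20 and 8.22 in CD133-positive cells, against 8.47, 8.30 and 8.23 in CD133-negative cells, a difference of -0.075 ± 0.10. Both B-type lamin genes had overlapping groups on each tested probe.

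The LINC complex, in which SUN proteins of the inner membrane hold nesprins of the outer membrane, had 0 of 7 tested probes called and 0 at an unadjusted p under 0.05. Sun1 read 9.59, 9.56 and 9.55 in CD133-positive cells, against 9.52, 9.55 and 9.56 in CD133-negative cells on ILMN_2437856, with 0.025 ± 0.076, and -0.034 ± 0.16 on ILMN_2986131. Sun2 had 9.41, 9.40 and 9.43 in CD133-positive cells, against 9.61, 9.51 and 9.42 in CD133-negative cells on ILMN_3004864, with -0.10 ± 0.086, and 0.058 ± 0.085 on ILMN_1244343. The nesprin gene Syne2 had 4.54, 4.77 and 5.56 in CD133-positive cells, against 5.51, 5.43 and 5.02 in CD133-negative cells on ILMN_2680968, where 1 of 3 CD133-positive and 3 of 3 CD133-negative arrays detected it, a difference of -0.36 ± 0.26, and 0.15 ± 0.18 on ILMN_2557698. All 7 tested LINC probes had overlapping groups. Syne1, the other nesprin gene, had 0.007 ± 0.22 on its 1 tested probe. Probes of this complex often lay at background, with 9 of 17 detected on no array.

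**Figure D5:**
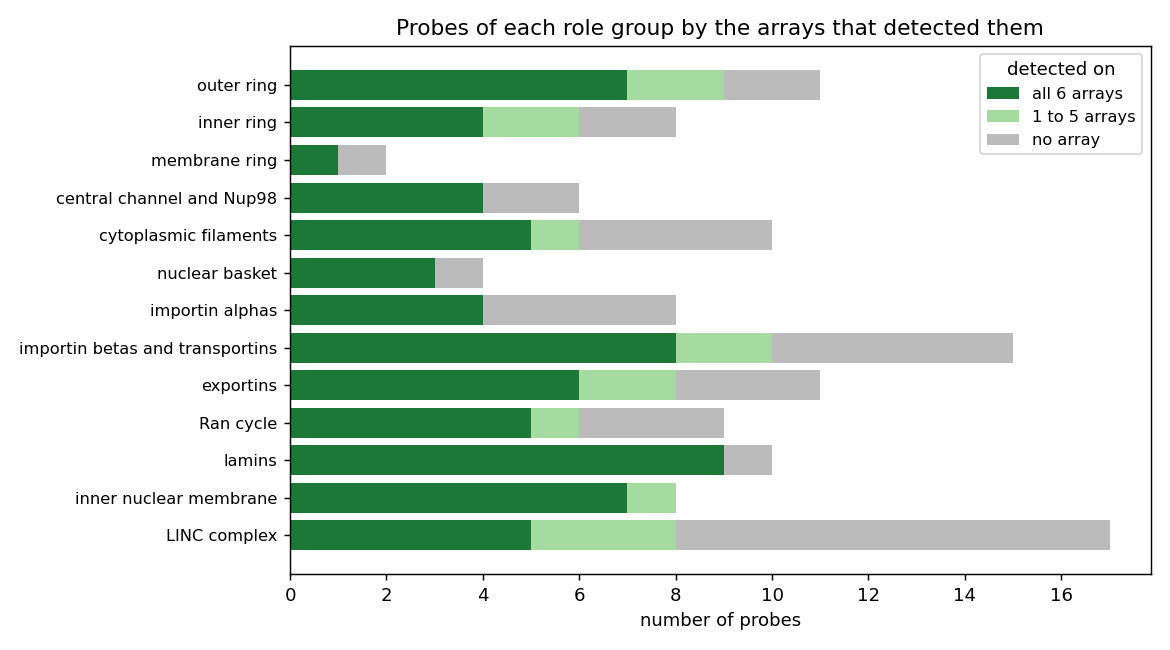
Number of probes (horizontal axis) in each role group that were detected at a detection p under 0.05 on all 6 arrays (dark green), on 1 to 5 arrays (light green) and on no array (grey). Of all 119 member probes 68 were detected on every array and 37 on none, and the LINC complex holds 9 of those 37.

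Among the structural nucleoporins outside Nup88, no probe passed. The outer ring, or Y complex, which coats the membrane at both faces of the pore, had 0 of 8 probes called and 0 at an unadjusted p under 0.05. Nup133 read 9.12, 9.12 and 9.14 in CD133-positive cells, against 9.33, 9.29 and 9.27 in CD133-negative cells on ILMN_2981689. These groups did not overlap, with -0.17 ± 0.076, and its other probes had -0.18 ± 0.11 on ILMN_2654013 and 0.23 ± 0.22 on ILMN_2719266. Nup107 had 7.25, 7.26 and 7.17 in CD133-positive cells, against 7.34, 7.38 and 7.38 in CD133-negative cells, also without overlap, with -0.14 ± 0.079. Nup160 had 9.35, 9.40 and 9.51 in CD133-positive cells, against 9.44, 9.55 and 9.61 in CD133-negative cells, with overlap and -0.11 ± 0.091. Nup37, Nup43 and Nup85 overlapped, with differences of -0.12 ± 0.12, -0.06 ± 0.12 and 0.026 ± 0.10. The 95% intervals of the outer ring probes reached no lower than -0.45.

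The inner ring, the scaffold that lines the membrane at the middle of the pore, had 0 of 6 probes called and 1 higher at an unadjusted p under 0.05. That probe was ILMN_1235035 of Nup155, with 5.46, 5.47 and 5.68 in CD133-positive cells, against 4.87, 4.91 and 5.21 in CD133-negative cells. The groups did not overlap, but the difference of 0.54 ± 0.12 missed the threshold (adjusted p = 0.0831). The other probes of Nup155 gave 0.17 ± 0.093 on ILMN_2695281, also without overlap, and -0.085 ± 0.13 on ILMN_2981935. Nup205 had 11.26, 11.32 and 11.17 in CD133-positive cells, against 11.43, 11.35 and 11.50 in CD133-negative cells, lower without overlap, with -0.18 ± 0.088. Nup93 had 5.01, 4.74 and 5.53 in CD133-positive cells, against 5.23, 4.69 and 4.50 in CD133-negative cells on ILMN_2449997, a probe detected on 2 of 3 CD133-positive and 1 of 3 CD133-negative arrays, with 0.29 ± 0.24, and 0.0053 ± 0.10 on ILMN_2758695. Nup188, the remaining inner ring gene on the array, was not above background on any array. Nup210, a transmembrane nucleoporin, had 9.38, 9.32 and 9.47 in CD133-positive cells, against 9.45, 9.49 and 9.50 in CD133-negative cells, overlapping, with -0.088 ± 0.082, and its relative Nup210l was not above background.

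In the central channel, Nup54, a channel nucleoporin with phenylalanine-glycine repeats, had 6.30, 6.36 and 6.22 in CD133-positive cells, against 6.02, 5.95 and 5.71 in CD133-negative cells. All CD133-positive arrays were higher, and the difference of 0.40 ± 0.11 missed the threshold (adjusted p = 0.123, 1 of 4 channel probes at an unadjusted p under 0.05 and 0 called). Its binding partner Nup62 had 10.48, 10.48 and 10.71 in CD133-positive cells, against 10.51, 10.47 and 10.45 in CD133-negative cells, overlapping, with 0.082 ± 0.095, and the related gene Nup62cl was not above background. Nup98, a mobile nucleoporin of both faces that is cleaved from a precursor shared with another nucleoporin, had 8.16, 8.15 and 8.07 in CD133-positive cells, against 8.11, 8.18 and 7.92 in CD133-negative cells on ILMN_2904083, with 0.053 ± 0.10, and 0.025 ± 0.089 on ILMN_2904080. The Nup98 groups overlapped on both probes. On the cytoplasmic filaments, Nup214 had 7.39, 7.51 and 7.59 in CD133-positive cells, against 7.59, 7.41 and 7.64 in CD133-negative cells, with -0.052 ± 0.10. Ranbp2, the large filament protein that binds Ran and acts as a SUMO ligase, had 5.30, 5.64 and 5.62 in CD133-positive cells, against 5.95, 5.16 and 5.71 in CD133-negative cells, with -0.088 ± 0.20. Both overlapped, so Nup88 was the 1 of 3 filament genes with a probe that passed. In the nuclear basket, Nup50 had 6.36, 6.28 and 6.09 in CD133-positive cells, against 5.76, 6.03 and 6.21 in CD133-negative cells on ILMN_1244061, with 0.24 ± 0.13, and 0.039 ± 0.18 and -0.0032 ± 0.17 on its other probes. None of the 3 basket probes passed or reached an unadjusted p under 0.05, and Nup153 was not above background on any array.

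The importin alphas are adaptors that bind nuclear localisation signals and hand the cargo to importin beta. Kpna2, the member of this family known for high expression in dividing cells, had 6.96, 6.90 and 7.15 in CD133-positive cells, against 6.47, 6.22 and 6.59 in CD133-negative cells. The groups did not overlap, and the difference of 0.58 ± 0.12 (1.49-fold) missed the threshold (adjusted p = 0.0692). It passed under 5 of 15 other ways of processing, with differences of 0.30 to 0.58. Kpna6 had 5.83, 5.90 and 5.82 in CD133-positive cells, against 5.27, 5.61 and 5.83 in CD133-negative cells, with 0.28 ± 0.14. Kpna3 had 7.19, 7.41 and 7.70 in CD133-positive cells, against 7.77, 7.65 and 7.43 in CD133-negative cells, with -0.19 ± 0.15. Both overlapped, as did Kpna1 with -0.093 ± 0.10, so of 4 tested importin alpha probes 0 passed and 1 was higher at an unadjusted p under 0.05. Kpna4 and Kpna7 were not above background on any array.

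Of the 8 tested importin beta and transportin probes, 1 per gene, 0 passed and 1 was higher at an unadjusted p under 0.05. That was Ipo7, which imports ribosomal proteins and histones, with 7.38, 7.42 and 7.45 in CD133-positive cells, against 6.92, 7.13 and 7.20 in CD133-negative cells. Its groups did not overlap, with 0.33 ± 0.10 (adjusted p = 0.152). Ipo4, an importer of histones and ribosomal proteins, had 8.01, 8.14 and 8.32 in CD133-positive cells, against 8.18, 8.50 and 8.54 in CD133-negative cells, overlapping, with -0.25 ± 0.13. Kpnb1, which encodes importin beta, the carrier of the classical import route, had 8.44, 8.36 and 8.71 in CD133-positive cells, against 9.03, 8.52 and 8.78 in CD133-negative cells, overlapping, with -0.27 ± 0.15 and a 95% interval of -0.63 to 0.081. The importins Ipo5, Ipo8, Ipo9 and Ipo13 and the transportin Tnpo3, an importer of SR splicing factors, had differences between -0.12 and 0.065. Tnpo1, the carrier of several RNA-binding proteins, had 3 probes that were not above background, apart from 1 of them on 1 CD133-positive array.

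The exportins had 0 of 8 tested probes called and 0 at an unadjusted p under 0.05. Xpo5, which exports precursor microRNAs, had 7.30, 7.24 and 7.29 in CD133-positive cells, against 7.65, 7.39 and 7.44 in CD133-negative cells. These groups did not overlap, and the difference was -0.22 ± 0.10 (adjusted p = 0.312). Xpo7 had 4.65, 5.17 and 5.14 in CD133-positive cells, against 4.99, 5.45 and 5.01 in CD133-negative cells on ILMN_1240092, with -0.16 ± 0.18, and -0.18 ± 0.25 and -0.11 ± 0.15 on its other probes. Xpo4 had 5.42, 5.43 and 4.97 in CD133-positive cells, against 4.99, 5.36 and 5.04 in CD133-negative cells on ILMN_2952725, with 0.14 ± 0.16, and 0.14 ± 0.19 on ILMN_1231751. All tested Xpo4 and Xpo7 probes overlapped, as did those of the actin exporter Xpo6, at -0.013 ± 0.11 and -0.16 ± 0.23. Xpo1, the main exporter of proteins with leucine-rich export signals, was not above background on any array, with a mean log2 intensity of 4.61 ± 0.19 in CD133-positive and 4.41 ± 0.11 in CD133-negative cells (SD, n = 3 each) on ILMN_3123321 and 4.53 ± 0.31 in CD133-positive and 4.43 ± 0.07 in CD133-negative cells on ILMN_2481528. No fold is given for it.

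In the Ran cycle, 0 of 5 probes passed and 0 reached an unadjusted p under 0.05. Ran had 8.99, 9.07 and 8.94 in CD133-positive cells, against 8.82, 8.96 and 8.85 in CD133-negative cells, overlapping, with 0.12 ± 0.086 and a 95% interval of -0.082 to 0.32. Mouse Ran has closely related gene copies, and a probe that also matches those could not be told apart here. Rangap1, the activator that makes Ran hydrolyse GTP in the cytoplasm, had 6.98, 6.91 and 7.28 in CD133-positive cells, against 6.59, 6.80 and 6.92 in CD133-negative cells on ILMN_1236888, with 0.28 ± 0.13. Its other probes gave -0.13 ± 0.10 on ILMN_2868997 and -0.0074 ± 0.081 on ILMN_1250837. Ranbp1, a cofactor of that activator, had 12.60, 12.62 and 12.53 in CD133-positive cells, against 12.62, 12.51 and 12.54 in CD133-negative cells, with 0.025 ± 0.081. The groups overlapped on every tested Ran cycle probe.

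Probes of a member gene did not always give the same value. Of the 46 tested genes 18 had more than 1 tested probe, and 0 of them had probes of opposite sign that each reached an unadjusted p under 0.05. The widest gap between probes of a gene was that of Nup88, from -0.25 to 0.75, followed by Lbr, from 0.045 to 0.98, and the difference between probes was not tested. The Lmna probes stayed within 0.27 of each other. In Lbr, Tmpo and Nup88 the brightest tested probe was not the 1 that passed. Mean log2 intensities in CD133-positive and CD133-negative cells were 7.21 and 6.23 on the passing Lbr probe, against 11.24 and 11.20 on the brightest. For Tmpo they were 6.88 and 6.22, against 8.53 and 8.36, and for Nup88 6.82 and 6.07, against 10.51 and 10.54.

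Further pore and transport genes that the rule leaves out were taken from a separate list of 42 symbols, of which 36 were on the annotation and 34 genes were tested with 60 probes. Of these probes 0 were higher and 1 was lower at an adjusted p under 0.05, and 4 were higher and 6 lower at an unadjusted p under 0.05, with a median difference of -0.015. The 1 that passed was ILMN_2688135 of Ddx19b, a helicase that releases exported mRNA at the cytoplasmic face of the pore, with 6.46, 6.07 and 6.31 in CD133-positive cells, against 6.93, 6.86 and 6.92 in CD133-negative cells. The groups did not overlap, with a difference of -0.62 ± 0.11 (adjusted p = 0.0492). The other Ddx19b probe, ILMN_1236406, had overlapping groups and -0.11 ± 0.12 (adjusted p = 0.687). A list of cell division genes had 20 genes on the annotation, of which 19 were tested. All 44 probes of that list, tested or not, summed to a normalized intensity of 29070 to 29420 on CD133-positive arrays. On CD133-negative arrays the sum was 28580 to 29400, and the part of these genes in the value of Kpna2 was not tested. Of their 39 tested probes 0 passed, with 6 higher and 3 lower at an unadjusted p under 0.05. The smallest p values there were those of Tyms and Mcm4, again on dim probes. Tyms probe ILMN_2441899 was at least 1.21-fold lower and not above background on the 3 CD133-positive arrays (adjusted p = 0.0547, from mean log2 intensities of 4.67 in CD133-positive and 5.18 in CD133-negative cells). Tyms probe ILMN_2484707, which every array detected, went the other way, with 0.22 ± 0.076 and no overlap of the groups (adjusted p = 0.209), and the 3 other Tyms probes had 0.21 ± 0.20, -0.29 ± 0.14 and -0.044 ± 0.13. Mcm4 had 0.67 ± 0.18 on ILMN_2752010 (adjusted p = 0.125), 0.28 ± 0.20 on ILMN_2752009 and -0.05 ± 0.082 on ILMN_2936427, which every array detected.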

How the data were processed

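Total RNA of the 3 samples of each population was made into biotin-labelled cRNA for 1-colour Illumina bead arrays, per the labels' protocols. Per the file headers, the deposited table holds a mean bead intensity, a standard error of bead intensities (signal scale), a count of beads and a detection p-value for each probe and array. A second deposited table holds intensities processed by the authors, by a method not given in the sources used here. No slide or scan date was used here, so batches could not be examined. Of the probes 34885 had 1 gene symbol, 18 several and 10378 none in the annotation.

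Intensities were corrected with limma 3.58.1 in R 4.3.3 (neqc: normal-exponential background from the detection p-values, which imply 936 negative controls, offset 16, log2, quantile normalization). Probes that 3 or more arrays detected (p under 0.05) were fitted with lmFit and eBayes, two-sided, with no covariates, and adjusted by Benjamini-Hochberg over all tested probes. The number of arrays limits the precision, and the offset compresses differences of dim probes. Symbols came from the platform annotation, and all 54 member symbols were found again by gene identifier in a RefSeq table. The fit was tested on simulated data.

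The genes named were those with a probe that passed, the 3 genes of each role group with the smallest p, and Lmna, Lmnb1, Lmnb2, Kpnb1, Kpna2, Xpo1, Ran, Nup98 and Tpr. Members, lists and this rule were chosen with earlier results of these data known. From lists of other genes, those that passed or the 2 with the smallest p were named, and further ones were added after their values were seen. A lower bound was the brighter group's mean against, per array, the higher of the dim probe's signal and the lowest signal of a detected probe. It allows for the background only, takes no account of the spread among arrays, and is not a confidence limit. Replicate numbers came from the titles, and the unnumbered title was replicate 1. The labels do not say that same-numbered samples are pairs, so the numbers served as a block only in an alternative. Deviations of same-numbered samples from their group means correlated at 0.0202, 0.00176 and 0.0183.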

Additional observations from a re-analysis of the deposited data

How the results depend on the processing

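All alternatives were marked as planned, although members and lists were chosen with earlier results of these data known. Over 15 other settings the 4 member probes that passed kept a difference above 0, and 64 probes of named genes gave 948 values, of which 906 kept their sign. The settings for the filter, the variance trend and the replicate block used the same normalized values. Their differences, and so their signs, could not change, and the count of 906 includes them. The 42 that changed sign did not belong to probes that passed as reported. Of 76 member probes 4 passed as reported, 7 with the authors' intensities (all higher), 7 with a variance trend and robust estimation (6 higher), 0 with a median shift, and 1 of 46 genes with probes averaged. With any 1 array left out 0 passed (0 to 0), although 9 to 12 member probes were higher and 0 to 2 lower at an unadjusted p under 0.05. With a replicate block 0 passed, with 10 higher and 1 lower at that level (limma). Kpna2 and the second Emd probe passed in 5 settings each, Ipo7 with the authors' intensities and 1 Lmna probe, lower, with the variance trend. Of all probes 264 passed (216 higher and 48 lower). This became 1110 without background correction (748 and 362), 734 with normal-exponential correction without controls (546 and 188), 1157 with the authors' intensities (836 and 321), 37 with a median shift (25 and 12), 113 without a filter, 555 with detection at 0.01 on all arrays, 1096 with the variance trend (733 and 363), 102 with probes averaged, 6 with the replicate block, and 7 to 14 with 1 array left out. The median log2 difference over tested member probes, -0.0053, became -0.14 with the median shift, where that of all probes was -0.13, and lay between -0.0317 and 0.0048 with 1 array left out. Apart from fewer arrays, probes or genes tested, the cause was not tested. Under the replicate block the differences could not change, since each replicate number holds 1 array of each group. They were therefore those reported, at 0.84 for Emd, 0.98 for Lbr, 0.66 for Tmpo and 0.75 for Nup88. The block could change only the errors and p-values. None of the 4 member probes passed there, with limma's adjusted p between 0.09997 and 0.1218. The same-numbered samples were not shown to be pairs, and whether a block suits these arrays was not tested.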
